A study of Homo sapiens with 11 samples.

Results

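The genes described here are 39 listed genes of mitosis: the kinases, cyclins, checkpoint proteins, kinesins and spindle proteins that carry a cell from G2 through chromosome separation. They were taken by symbol, with 1 probe set per gene, the brightest on average over all 11 arrays. Of the 39 genes, 35 had a probe set of their own among the 8549 genes measured, and KIF20A, KIF4A, NUSAP1 and PRC1 were not analysed here.

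The cells were SCC9, an established human tongue cancer line of squamous type, which the labels also spell SSC9. Cells were seeded, detached with trypsin the next day and then treated. They received 100 µmol/L nimesulide together with 0.5 µmol/L cisplatin (the combination, 2 arrays), cisplatin alone (3 arrays), nimesulide alone (3 arrays), or neither (control, 3 arrays). Cisplatin is a platinum drug that crosslinks DNA, and nimesulide is an anti-inflammatory drug that preferentially inhibits cyclooxygenase-2. Control dishes got no compound, the labels name no solvent, and the time from drug addition to RNA is not given in the sources used here. Each array carries a replicate letter, A, B or C, and the combination has letters A and B. All values are log2 intensities from Affymetrix U133A arrays, so a difference of 1 is a doubling, and n is the number of arrays. Adjusted p-values are from limma, two-sided, with Benjamini-Hochberg adjustment over all 16383 probe sets, and a call is an adjusted p under 0.05. The labels state triplicate experiments, with no word on separate cultures, so p-values measure the spread between these arrays, which may be technical.

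As background, entry into mitosis is driven by CDK1 bound to cyclins A and B. Aurora and Polo kinases then build the spindle, kinesin motors move microtubules and chromosomes, and the spindle checkpoint holds back the anaphase-promoting complex until every kinetochore is attached. The transcripts of these genes are known to accumulate together late in the cell cycle, in G2 and mitosis. A repressor complex called DREAM and activators of the MuvB family act on their promoters through the CHR element, often close to CCAAT boxes bound by NF-Y. In a whole culture, a larger share of cells in G2 or mitosis and more transcript per such cell cannot be told apart.

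The promoters of the members with the largest and the smallest cisplatin differences are shown because these genes share a known promoter design whether or not they differed. RefSeq promoters were available for 29 of the 35 members, and AURKA, BIRC5, BUB3, TPX2, TTK and UBE2C are named only. Each run is 300 bases, 250 before to 50 after the annotated start, 5′ to 3′ on the gene's strand in build GRCh38.p14. Capitals mark a CHR (TTTGAA or TTCGAA) or a CCAAT box (CCAAT), each searched on both strands. HMMR and DLGAP5 had the highest cisplatin differences among members with a promoter, and ZWINT and MKI67 the lowest. HMMR lies at chr5:163460382-163460681 on the plus strand. DLGAP5 lies at chr14:55191536-55191835, ZWINT at chr10:56361210-56361509 and MKI67 at chr10:128126374-128126673, all on the minus strand.
HMMR: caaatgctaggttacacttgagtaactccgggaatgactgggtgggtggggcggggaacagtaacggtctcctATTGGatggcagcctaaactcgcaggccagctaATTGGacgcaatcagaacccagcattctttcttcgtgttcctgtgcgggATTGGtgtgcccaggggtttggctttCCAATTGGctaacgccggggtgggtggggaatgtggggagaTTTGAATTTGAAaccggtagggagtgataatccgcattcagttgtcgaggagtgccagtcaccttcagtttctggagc
DLGAP5: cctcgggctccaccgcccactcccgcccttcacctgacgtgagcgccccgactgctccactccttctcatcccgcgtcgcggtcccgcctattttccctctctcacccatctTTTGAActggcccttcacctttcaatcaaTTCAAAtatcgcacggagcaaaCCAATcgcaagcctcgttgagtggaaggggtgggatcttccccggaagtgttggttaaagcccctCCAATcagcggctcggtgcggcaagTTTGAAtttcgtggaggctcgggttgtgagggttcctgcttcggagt
ZWINT: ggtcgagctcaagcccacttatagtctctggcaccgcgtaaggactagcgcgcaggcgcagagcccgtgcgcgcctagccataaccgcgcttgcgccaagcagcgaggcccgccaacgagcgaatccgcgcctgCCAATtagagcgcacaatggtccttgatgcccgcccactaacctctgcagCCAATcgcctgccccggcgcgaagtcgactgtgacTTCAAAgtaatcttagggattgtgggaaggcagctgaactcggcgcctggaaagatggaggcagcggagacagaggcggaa
MKI67: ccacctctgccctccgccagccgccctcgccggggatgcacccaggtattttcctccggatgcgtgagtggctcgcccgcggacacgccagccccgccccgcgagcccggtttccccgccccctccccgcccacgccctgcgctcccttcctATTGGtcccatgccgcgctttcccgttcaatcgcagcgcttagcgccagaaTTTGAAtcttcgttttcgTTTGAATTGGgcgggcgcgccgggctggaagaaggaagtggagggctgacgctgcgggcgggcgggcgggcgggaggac
HMMR held 2 matches to CHR and 5 to CCAAT, and DLGAP5 held 3 and 2. ZWINT held 1 and 2, and MKI67 held 2 and 2, with 1 CHR and 1 CCAAT of MKI67 overlapping. A pair of CCAAT matches on opposite strands also overlap in HMMR.

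Among the members, 20 of 29 promoters (69.0%) held a CHR and 23 (79.3%) a CCAAT box, and 18 (62.1%) held both. Over all 27305 RefSeq promoters of this length the shares were 16.6%, 35.7% and 6.58%. Of the 8 members with a promoter whose 3 cisplatin arrays all lay above the 3 control arrays, 6 held both motifs (75.0%), and of the 21 other members 12 did (57.1%). The difference between these shares was not tested, and HMMR, which held both motifs, is among the 21. A match is a run of letters and not a shown binding site.

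Levels of different probe sets also depend on how well each probe binds, so they give no order between genes. Of CDK1 and its partners, mean levels over all arrays were CKS2 9.75, CCNB1 9.35, CCNB2 9.05, CDC25B 8.97, CDK1 8.92, CCNA2 8.202 and CDC25C 6.68. Among the other kinases, mean levels over all arrays were AURKA 9.09, NEK2 8.92, AURKB 7.76 and PLK1 7.31. In the checkpoint and kinetochore group, mean levels over all arrays were BUB3 9.35, ZWINT 8.94, MAD2L1 8.92, TRIP13 8.84, TTK 8.17, CENPF 8.01, BUB1 7.83, BUB1B 7.68, CENPA 7.47 and CENPE 6.10. These are levels of single probe sets, 1 per gene. Of the anaphase genes, mean levels over all arrays were PTTG1 10.06, UBE2C 9.94, CDC20 9.75 and ESPL1 6.27. Among the kinesins, mean levels over all arrays were KIF2C 8.999, KIF14 7.30, KIF11 7.06 and KIF23 6.70. Of the spindle assembly genes, mean levels over all arrays were TPX2 9.86, HMMR 8.53 and DLGAP5 8.504. Of the chromosome and passenger genes, mean levels over all arrays were TOP2A 9.72, BIRC5 8.22 and MKI67 7.86. Of 9 measured squamous epithelial markers, CDH1 stood at 10.65, EPCAM at 9.55, SFN at 10.49, KRT5 at 7.70, KRT14 at 5.22 and PKP1 at 4.25. Fibroblast, endothelial and leukocyte markers (13 measured of 15 listed) lay between 2.76 and 6.23. Between arrays, all values correlated at 0.995 to 0.998.

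The combination arrays differed from each other over these genes more than any other pair of same-treatment arrays did. Their mean over the 35 members, less the control mean, was 0.25 on combination B and -0.01 on combination A. It was 0.08, 0.13 and 0.14 on cisplatin arrays A, B and C, and 0.01, 0.02 and 0.00 on nimesulide arrays A, B and C. On control arrays A, B and C it was 0.01, 0.03 and -0.04. The 3 cisplatin arrays thus stood above all nimesulide and control arrays, and combination A stood among the controls. Combination B exceeded combination A in 34 of 35 members by a median of 0.24, against 52.2% of all genes and a median of 0.01. TRIP13 was the exception, at 8.89 on both. Between arrays of 1 treatment, the other 9 pairs had member medians from -0.08 to 0.08. Combination B was the highest of the 11 arrays in 19 of 35 members (54.3%), and in 9.11% of all genes. The means over the members that include the combination are therefore also given by letter.

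**Figure D1:**
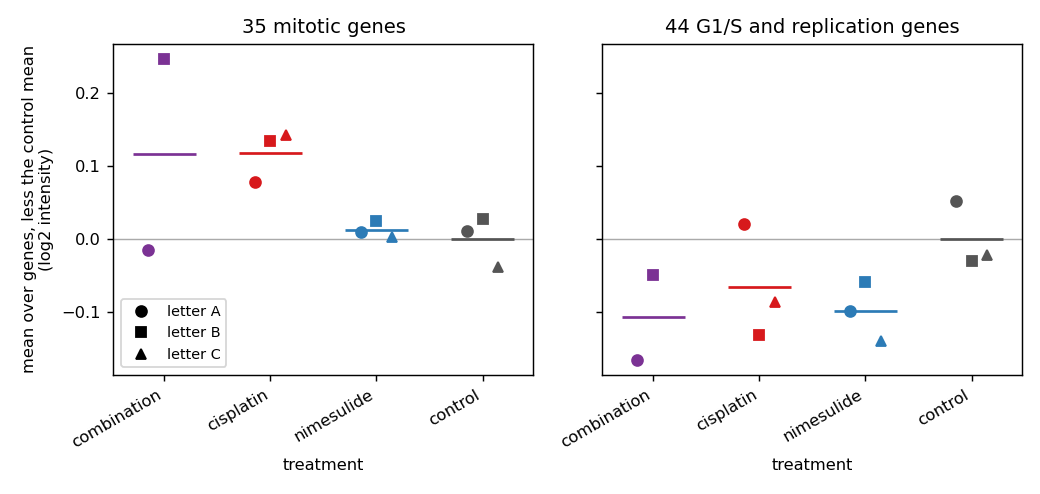
Mean log2 intensity over 35 mitotic genes (left) and 44 G1/S and replication genes (right) on each array, less the mean of the 3 controls; symbols are replicate letters and lines are treatment means. The 3 cisplatin arrays sit between 0.08 and 0.14 for the mitotic genes, and the 2 combination arrays at -0.01 and 0.25.

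The first comparison sets cells given the crosslinking drug alone beside untreated cells. The mean over the 35 members was 8.463 ± 0.035 with cisplatin and 8.345 ± 0.035 in controls (SD, n = 3 each), a difference of 0.12. HMMR, a hyaluronan receptor that also binds spindle microtubules, and DLGAP5, a spindle assembly protein, differed most. The means of CCNB1, AURKA, TTK and UBE2C were also higher, by 0.22 to 0.24. MKI67, which encodes the proliferation marker Ki-67, had a lower mean by its brightest probe set. None of these single differences passed adjustment over all probe sets.

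HMMR stood at 8.46, 8.85 and 8.74 on cisplatin arrays A, B and C, against 8.21, 8.46 and 8.25 on the control arrays. The groups overlapped only at cisplatin A and control B, and within each letter cisplatin was higher (difference 0.37, SE 0.11, adjusted p = 0.968 by limma). DLGAP5 stood at 8.57, 8.72 and 8.79 with cisplatin, against 8.40, 8.30 and 8.37 in controls. All 3 cisplatin arrays lay above all controls (0.34, SE 0.09, adjusted p = 0.968 by limma).

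TTK, the kinase MPS1 that starts spindle checkpoint signalling, stood at 8.26, 8.38 and 8.21 with cisplatin, against 7.998, 8.09 and 8.05 in controls. The groups did not overlap (0.24, SE 0.07, adjusted p = 0.968 by limma). UBE2C, the ubiquitin-conjugating enzyme of the anaphase-promoting complex, stood at 10.00, 10.13 and 10.07 with cisplatin, against 9.83, 9.90 and 9.80 in controls, again without overlap (0.22, SE 0.07). TOP2A, the topoisomerase that untangles sister chromatids, stood at 9.72, 9.89 and 9.85 with cisplatin, against 9.64, 9.48 and 9.61 in controls (0.24, SE 0.09). AURKA, the kinase of the spindle poles, stood at 9.13, 9.23 and 9.23 with cisplatin, against 9.01, 8.95 and 8.98 in controls (0.22, SE 0.08). In both genes the lowest cisplatin array was letter A.

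Means were higher in 30 of 35 members, against 42.6% of all genes, and lower in 5, against 57.4%. Within letters A, B and C, cisplatin was higher in 24, 27 and 32 members, against 47.6%, 40.5% and 45% of all genes. limma called 0 of the 35 members, with and without the replicate letter as a block, and 0 of all 16383 probe sets (0%), with the smallest unadjusted member p at 0.00247 for DLGAP5. At an unadjusted p under 0.05, 10 members were higher and 0 lower, against 1.54% of all genes higher and 2.51% lower. These 10 were HMMR, DLGAP5, TTK, UBE2C, TOP2A, AURKA, KIF2C, NEK2, MAD2L1 and PTTG1. By other probe sets, HMMR was at 0.21, KIF2C at 0.20, AURKA at 0.19 and 0.11, TOP2A at 0.11 and NEK2 at 0.05. None of these other probe sets passed that unadjusted level. On that of TOP2A, cisplatin A (8.07) lay below all controls (8.42, 8.39 and 8.17). All 3 cisplatin arrays lay above all 3 controls in 11 members, against 3.38% of all genes, and below them in 0 members, against 5.31%. Cisplatin was higher within every letter in 21 of 35 members, against 11.3% of all genes, and lower within every letter in 2, MKI67 and BUB3, against 17.1%. The median member difference was 0.12, beside -0.01 over all genes.

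By role, the spindle assembly proteins HMMR, DLGAP5 and TPX2, which nucleates microtubules near chromosomes, had a median difference of 0.34. The 4 proteins of anaphase, UBE2C, the checkpoint target CDC20, securin PTTG1 and the cohesin-cutting protease ESPL1, had a median of 0.16. CDC20 was at 0.11, PTTG1 at 0.20 and ESPL1 at 0.02. The 4 kinesins had a median of 0.16. KIF2C, which depolymerises microtubules at centromeres, was at 0.22, the midbody kinesins KIF14 and KIF23 at 0.18 and 0.13, and KIF11, which pushes the spindle poles apart, at 0.06.

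The 7 members of the CDK1 module all had a higher mean by their brightest probe set, with a median of 0.12. CCNB1, cyclin B1, stood at 9.29, 9.61 and 9.49 with cisplatin, against 9.13, 9.45 and 9.16 in controls. Cisplatin was higher within each letter, although the groups overlapped (0.22, SE 0.11). CCNB2, cyclin B2, was at 0.16, CDC25B, a phosphatase that activates CDK1, at 0.12, and CKS2, a small CDK1-binding subunit, at 0.13. The second phosphatase, CDC25C, was at 0.03, as was CCNA2, cyclin A2. By other probe sets CDC25C was at 0.0003 (SE 0.07) and -0.27 (SE 0.12), and CCNA2 at 0.23 (SE 0.09). For CDC25C the direction depended on the probe set, and for CCNA2 the size did. CDK1 itself was at 0.12 (SE 0.11) by its brightest probe set. Another CDK1 probe set, picked out after its values were seen, was at 0.44 (SE 0.09, adjusted p = 0.903 by limma). It stood at 8.96, 9.21 and 9.06 with cisplatin, against 8.71, 8.71 and 8.4997 in controls, and so the size for CDK1 depended on the probe set.

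Among kinases outside the checkpoint, AURKA and NEK2, a kinase that separates centrosomes, were higher by 0.22 and 0.21. PLK1, the Polo kinase of mitotic entry, was at 0.09 and AURKB, the kinase of the chromosomal passenger complex, at -0.02. BIRC5, or survivin, another subunit of that complex, was at 0.14 (SE 0.10). The 10 checkpoint and kinetochore genes had the lowest median of the roles, 0.07. Beside TTK, MAD2L1, which inhibits CDC20, was at 0.18, while TRIP13, which remodels MAD2, was at 0.09 and BUB1B, or BUBR1, at 0.08. The kinase BUB1 was at 0.07, the kinetochore proteins CENPF at 0.08 and CENPE at 0.01, and the centromeric histone CENPA at -0.04.

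The lowest members were BUB3 at -0.09 (SE 0.08), MKI67 at -0.09 (SE 0.08), ZWINT, a kinetochore scaffold, at -0.04 (SE 0.08) and CENPA. MKI67 stood at 7.92, 7.65 and 7.85 with cisplatin, against 7.95, 7.89 and 7.85 in controls, so the groups overlapped. CENPA turned to 0.05 without cisplatin A, and when arrays or letters were left out MKI67 ran from -0.15 to -0.013 and BUB3 from -0.17 to -0.016. BUB3, a checkpoint adaptor, had 4 probe sets and its direction depended on them: the brightest was at -0.09 and the other 3 between 0.03 and 0.14. By its other probe sets, MKI67 was at -0.11, -0.01 and 0.08. The other probe sets of BUB1 were at 0.09, -0.08, -0.12 and -0.08. For both genes the direction thus depended on the probe set. Of the 13 members with several probe sets, all probe sets had the same sign in 9.

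**Figure D2:**
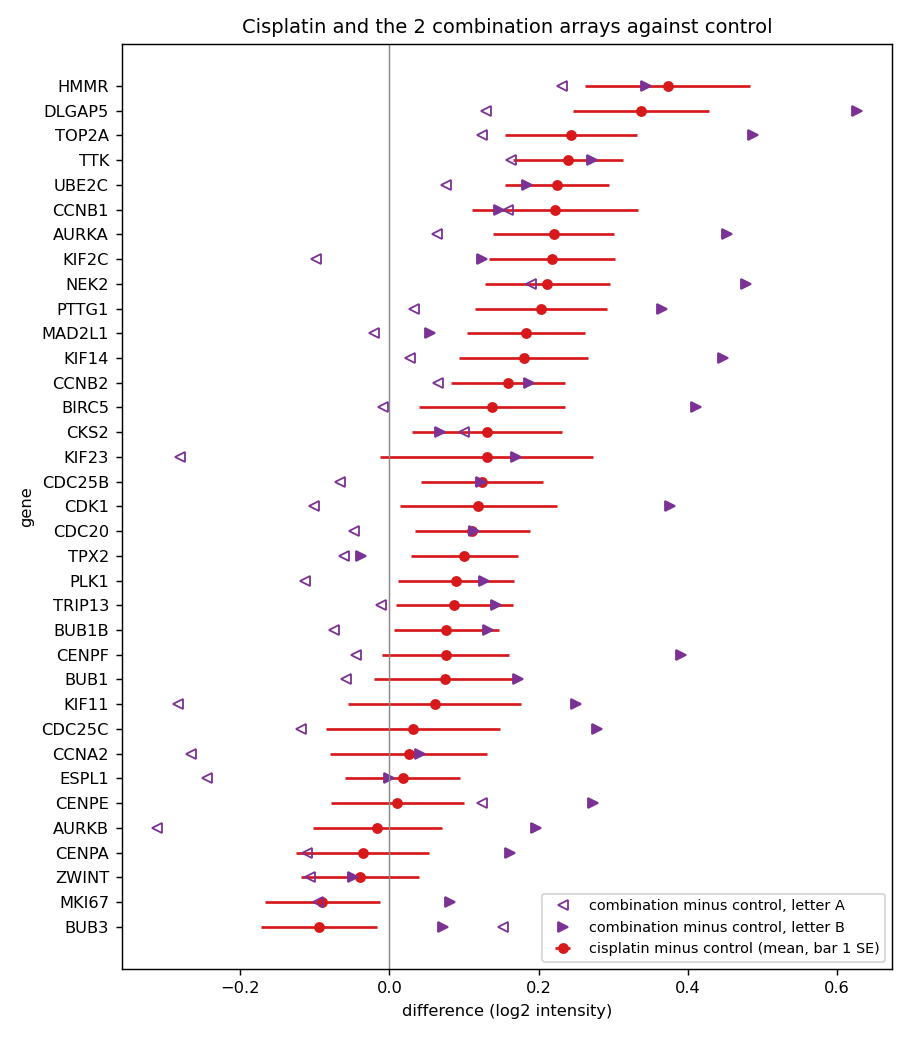
Difference from control of each member (log2 intensity) for cisplatin as the mean of 3 arrays with 1 SE (red), and for combination A (open) and combination B (filled) against the control of the same letter. The cisplatin differences run from -0.09 to 0.37, and combination B lies to the right of combination A in most members.

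The next comparison sets cells given only nimesulide beside untreated cells. The mean over the members was 8.357 ± 0.011 with nimesulide and 8.345 ± 0.035 in controls (SD, n = 3 each). The difference of 0.01 was smaller than the SD of the controls. HMMR was the highest member and ZWINT the lowest. After HMMR, the members furthest above control with cisplatin were DLGAP5, TOP2A, TTK, UBE2C, CCNB1 and AURKA. With nimesulide these were at -0.04, 0.08, 0.06, 0.03, 0.04 and 0.03. By its other probe sets AURKA was at 0.14 (SE 0.10) and 0.07 (SE 0.07) with nimesulide, so its size depended on the probe set. Both comparisons use the same controls.

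HMMR stood at 8.53, 8.48 and 8.55 on nimesulide arrays A, B and C, against 8.21, 8.46 and 8.25 in controls. All nimesulide arrays lay above all controls, by 0.01 at the closest (0.21, SE 0.11, adjusted p = 0.940 by limma). By another HMMR probe set, nimesulide arrays stood at 7.40, 7.71 and 7.41, against 7.24, 7.46 and 7.47 in controls. On that probe set the groups overlapped (0.12, SE 0.12). NEK2 was at 0.15 (SE 0.08), CCNA2 at 0.11 (SE 0.10) and KIF14 at 0.10 (SE 0.09). Nimesulide A, at 9.06 for NEK2, was the second-highest of all 11 arrays, while nimesulide B and C stood at 8.81 and 8.88.

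ZWINT stood at 9.01, 8.77 and 8.71 with nimesulide, against 8.97, 9.06 and 8.998 in controls. Nimesulide B and C lay below all controls and nimesulide A did not (-0.18, SE 0.08, adjusted p = 0.910 by limma). AURKB was at -0.09 (SE 0.09), BIRC5 at -0.09 (SE 0.10) and KIF11 at -0.09 (SE 0.12). KIF11 turned to 0.02 without nimesulide B. AURKB was at -0.006 without control A, and BIRC5 at -0.018 without control C and -0.004 without all arrays of letter C. The differences of NEK2, CCNA2 and KIF14 ran from 0.07 to 0.21, 0.04 to 0.19 and 0.04 to 0.17 as arrays or letters were left out.

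Means were higher in 22 of 35 members, against 48.8% of all genes, and lower in 13, against 51.2%. HMMR was the 1 member with all nimesulide arrays above all controls, against 4.59% of all genes, and 0 members had all of them below, against 5.26%. limma called 0 members, beside 1 of 16383 probe sets (0.0061%), and with the replicate letter as a block 0 members beside 37 probe sets (0.226%). At an unadjusted p under 0.05, 0 members were higher and 1 lower, against 2.75% and 3.15% of all genes. These counts take the brightest probe set of each gene. At that level, other probe sets of BUB3 (0.17 and 0.19) and CDK1 (0.20) were higher. Of the 13 members with several probe sets, all probe sets had the same sign in 7. Nimesulide was higher within every letter in 4 members (HMMR, NEK2, CCNA2 and CDK1), against 12.8% of all genes, and lower in 2, against 14.6%. The median member difference was 0.02, beside 0.00 over all genes. Within letters A, B and C the mean difference over the members was -0.001, -0.003 and 0.042, with 15, 19 and 21 members higher, against 43.9%, 54.8% and 44.7% of all genes.

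**Figure D3:**
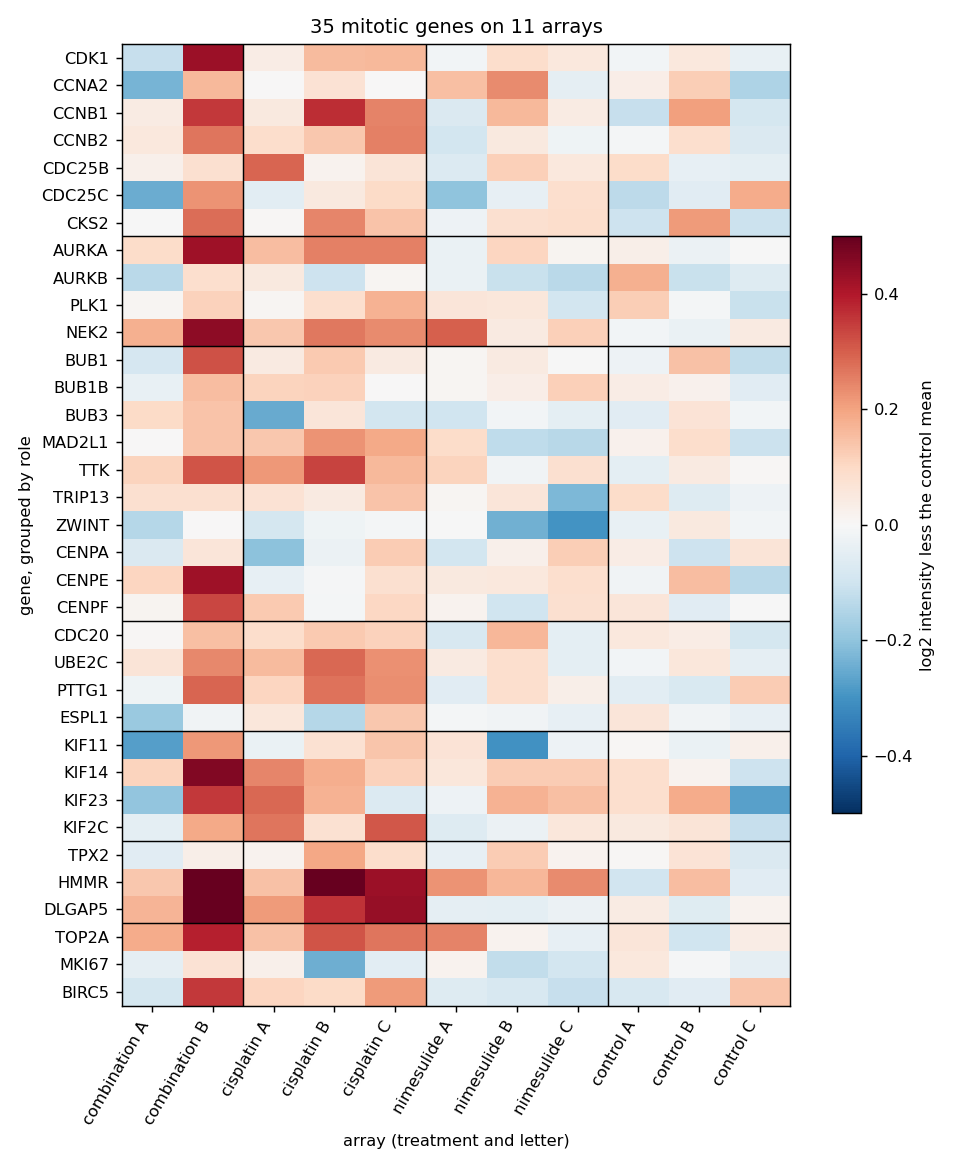
Log2 intensity of each of the 35 members on each array less the mean of the 3 controls, with genes grouped by role between the horizontal lines; red is above and blue below control, and values beyond 0.5 take the end colour. Combination B and the cisplatin arrays are mostly red, while combination A and the nimesulide arrays mix both colours.

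Cells given both agents were then set beside untreated cells. The mean over the members was 8.461 ± 0.185 with both agents (SD, n = 2) and 8.345 ± 0.035 in controls (SD, n = 3), so the difference of 0.12 was smaller than the SD of the combination arrays. Against the control of the same letter, the member mean was 0.22 higher in letter B, with 32 of 35 members higher. In letter A it was -0.03, with 14 higher. The shares of all genes that were higher were 47.5% in letter B and 42.3% in letter A. Without combination B the member difference was -0.01, and without combination A it was 0.25. For each probe set, limma takes a spread shared by all 4 treatments. In DLGAP5, for example, the SD was 0.28 on the combination arrays and 0.05 in controls. Where the 2 combination arrays lie far apart, the SEs and p-values of comparisons with the combination therefore lean on the tighter groups and may be too small.

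DLGAP5, which is among the members described above for cisplatin, stood at 8.53 and 8.92 on combination arrays A and B, against 8.40, 8.30 and 8.37 in controls. Both combination arrays lay above all controls (0.37, SE 0.10, adjusted p = 0.346 by limma). NEK2 stood at 8.94 and 9.21 with both agents, against 8.75, 8.73 and 8.81 in controls, without overlap (0.31, SE 0.09, adjusted p = 0.40 by limma). KIF14 stood at 7.28 and 7.63 with both agents, against 7.25, 7.18 and 7.07 in controls (0.29, SE 0.10, adjusted p = 0.477 by limma). Combination A exceeded the highest control by 0.03 in this gene. HMMR stood at 8.44 and 8.81 with both agents, against 8.21, 8.46 and 8.25 in controls, so combination A lay below control B (0.32, SE 0.12). As arrays or letters were left out, the difference ran from 0.14 to 0.59 for DLGAP5, 0.16 to 0.45 for NEK2, 0.11 to 0.51 for KIF14 and 0.13 to 0.50 for HMMR.

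CENPE, the kinesin that carries chromosomes to the spindle equator, is named here after its values were seen. It stood at 6.14 and 6.46 with both agents, against 6.02, 6.19 and 5.90 in controls (0.27, SE 0.10). The lowest members were ESPL1 (-0.10, SE 0.09), ZWINT (-0.07, SE 0.09), CCNA2 (-0.04, SE 0.12) and KIF11 (-0.03, SE 0.13). Without combination A, ZWINT turned to 0.00051, CCNA2 to 0.16 and KIF11 to 0.22. By another probe set CCNA2 was at 0.22, so that its direction depended on the probe set as well.

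Means were higher in 27 of 35 members, against 42.2% of all genes, and lower in 8, against 57.8%. limma called 0 members, beside 0 of 16383 probe sets (0%). With the replicate letter as a block it called 0 members, beside 33 probe sets (0.201%). At an unadjusted p under 0.05, 8 members were higher and 0 lower, against 3.79% and 4.94% of all genes. Both combination arrays lay above all controls in 8 members, namely DLGAP5, NEK2, KIF14, TOP2A, AURKA, TTK, UBE2C and BUB3, against 9.70% of all genes. They lay below all controls in 0 members, against 14.9% of all genes. Within both letters 14 members were higher, against 22.2% of all genes, and 2 lower (TPX2 and ZWINT), against 29.6%. The gap between letters was wide for AURKB (-0.31 in letter A and 0.20 in letter B), KIF11 (-0.28 and 0.25), KIF23 (-0.28 and 0.17) and CDK1 (-0.10 and 0.38). It was narrow for CCNB1 (0.16 and 0.15), CKS2 (0.10 and 0.07) and TTK (0.16 and 0.27).

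**Figure D4:**
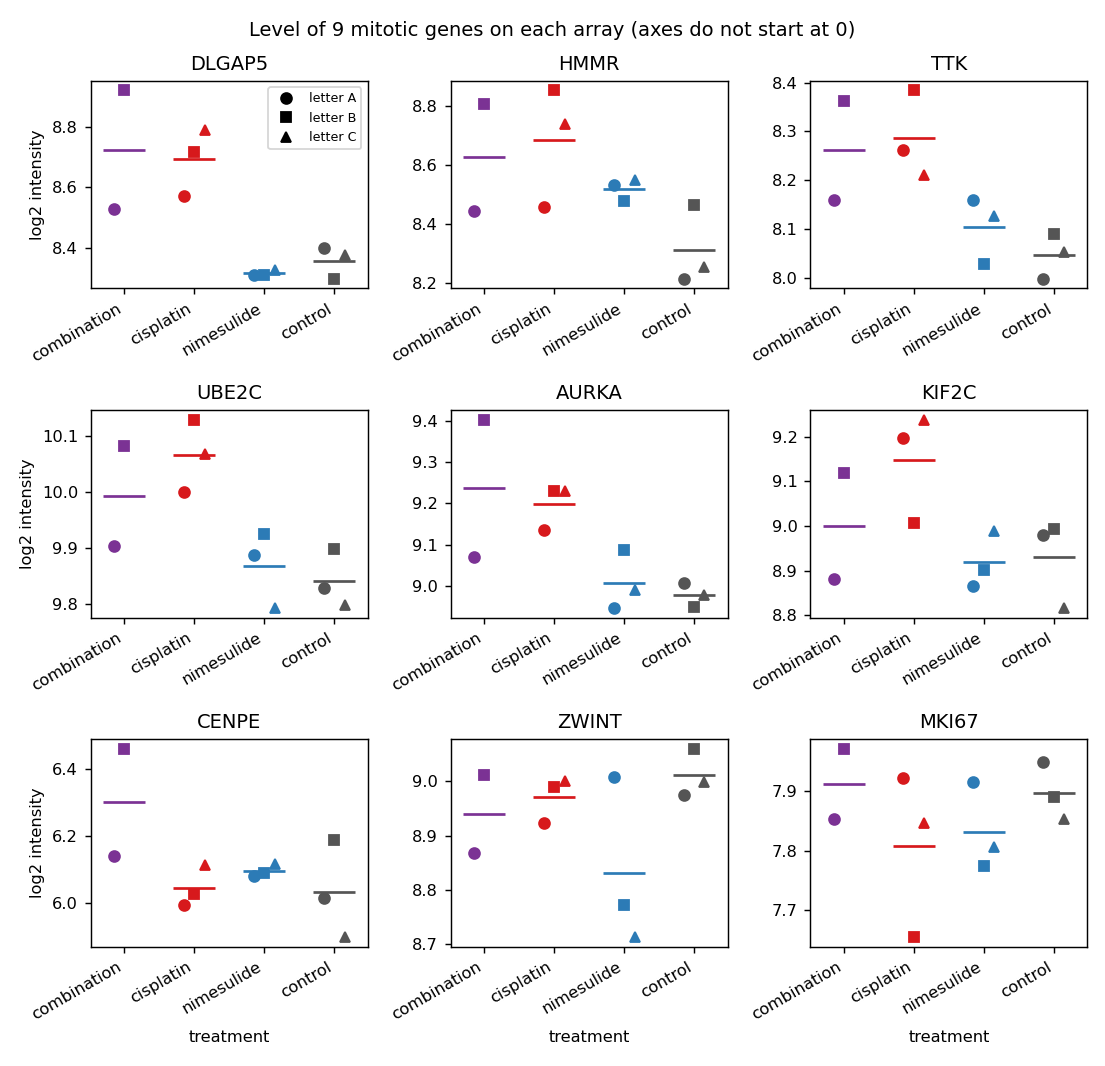
Log2 intensity of 9 members on each array by treatment; symbols are replicate letters, lines are treatment means, and each panel has its own axis that does not start at 0. DLGAP5, TTK, UBE2C and AURKA show all cisplatin arrays above all controls, while ZWINT and MKI67 do not.

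Both agents were next set beside cisplatin alone, a test of added nimesulide. The mean over the members was 8.461 ± 0.185 with both agents (SD, n = 2) and 8.463 ± 0.035 with cisplatin alone (SD, n = 3). The letters pointed in opposite directions. In letter A the mean difference was -0.09, with 28 of 35 members lower. In letter B it was 0.11, with 29 of 35 higher. The shares of all genes that were higher were 44.8% in letter A and 55.3% in letter B.

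CENPE stood at 6.14 and 6.46 with both agents, against 5.99, 6.03 and 6.11 with cisplatin, without overlap (0.25, SE 0.10, adjusted p = 0.631 by limma). BUB3 stood at 9.47 and 9.51 with both agents, against 9.12, 9.43 and 9.27 with cisplatin, also without overlap (0.21, SE 0.09, adjusted p = 0.645 by limma). That separation rests on the brightest probe set, and by each other probe set of BUB3 the groups overlapped. On 1 of these, the combination stood at 8.71 and 8.93, against 8.79, 8.78 and 8.72 with cisplatin. KIF14 was at 0.11 (SE 0.10) and MKI67 at 0.10 (SE 0.09), but KIF14 turned to -0.07 without combination B. The lowest members were KIF2C at -0.15 (SE 0.09), ESPL1 at -0.12 (SE 0.09), TPX2 at -0.11 (SE 0.08) and MAD2L1 at -0.11 (SE 0.09). The letters were opposite for KIF2C (-0.31 in letter A and 0.11 in letter B) and ESPL1 (-0.24 and 0.12). Their differences ran from -0.34 to -0.005 and from -0.28 to -0.017 as arrays or letters were left out, and that of CENPE from 0.086 to 0.415. HMMR and DLGAP5, the members furthest above control with cisplatin alone, were at -0.06 and 0.03.

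Means were higher in 14 of 35 members, against 49% of all genes, and lower in 21, against 51%. The 2 members with both combination arrays above all cisplatin arrays, CENPE and BUB3, compare with 10.3% of all genes. limma called 0 members, beside 0 of 16383 probe sets (0%), and with the replicate block 0 members beside 37 probe sets (0.226%). At an unadjusted p under 0.05, 2 members were higher (CENPE and BUB3) and 0 lower, against 3.38% and 3.58% of all genes. Within both letters 7 members were higher and 6 lower, against 26.0% and 23.6% of all genes.

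Both agents beside nimesulide alone is a test of added cisplatin, on arrays other than those of cisplatin and control. The member mean was 8.461 ± 0.185 with both agents (SD, n = 2) and 8.357 ± 0.011 with nimesulide (SD, n = 3). By letter the mean difference was -0.02 in A, with 16 of 35 members higher, and 0.22 in B, with 30 of 35 higher, against 46.4% and 42.4% of all genes. Means were higher in 30 of 35 members, against 44.8% of all genes, and lower in 5, against 55.2%. All combination arrays lay above all nimesulide arrays in 6 members (CCNB2, BUB3, TTK, TRIP13, CENPE and DLGAP5), against 8.66% of all genes. By each other probe set of BUB3, these groups overlapped. DLGAP5 stood at 8.53 and 8.92 with both agents, against 8.31, 8.31 and 8.33 with nimesulide. It was the member furthest apart (0.41, SE 0.10, adjusted p = 0.707 by limma), and both combination arrays lay above all nimesulide arrays. It ran from 0.21 to 0.61 as arrays or letters were left out. AURKA was at 0.23 (SE 0.09), but at 0.06 without combination B and 0.39 without combination A. CCNA2 and ESPL1 were the lowest at -0.15 (SE 0.12) and -0.08 (SE 0.09). Without combination A, CCNA2 turned to 0.05 and ESPL1 to 0.004. limma called 0 members and 0 probe sets (0%), with and without the block. At an unadjusted p under 0.05, 3 members were higher and 0 lower, against 2.61% and 4.68% of all genes.

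The interaction was the combination's difference from cisplatin less nimesulide's difference from control, and is 0 where the agents add up on the log2 scale. Its mean over the members was -0.01. It was -0.09 in letter A, with 26 of 35 members below 0, and 0.12 in letter B, with 24 above 0, against 47.7% of all genes above 0 in letter A and 52.1% in letter B. It was above 0 in 15 of 35 members, against 50.4% of all genes, and below in 20, against 49.6%. BUB3 (0.27, SE 0.12) and CENPE (0.19, SE 0.13) were highest, and HMMR (-0.27, SE 0.17) and CCNA2 (-0.17, SE 0.16) lowest. limma called 0 members and 0 probe sets (0%), with and without the block. At an unadjusted p under 0.05, 1 member, BUB3, was higher and 0 were lower, against 2.07% and 2.27% of all genes. By the median of its 4 probe sets, BUB3 was at -0.09.

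Lists of other genes, most of them tied to cell division, had median cisplatin differences near 0. The list of other kinesins also holds transport motors, so its median is not that of mitotic genes alone. In no list of other genes was a member called by limma in cisplatin, nimesulide or the combination against control. The median cisplatin difference was -0.02 for 8 subunits and regulators of the anaphase-promoting complex and 0.03 for 12 other kinetochore and centromere genes. It was -0.01 for 15 condensin and cohesin genes, 0.01 for 17 other kinesins and 0.005 for 17 regulators of mitotic entry and transcription. For 19 centrosome genes it was -0.004, for 12 tubulins 0.03 and for 4 cytokinesis genes 0.02. Single genes lay further from 0 than these medians. Of the other kinetochore and centromere genes 9 were higher and 3 lower, from CENPC at 0.18 to PMF1 at -0.05. Regulators of mitotic entry ran from CKS1B at 0.15 to E2F1 at -0.16, with 9 higher and 8 lower. Cytokinesis genes ran from KIF20B at 0.11 to SEPTIN2 at -0.11, with 2 higher and 2 lower. Differences between these medians and that of the members were not tested.

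In the combination against control, the highest and lowest gene of each list are given, from 2 combination arrays, which differ as described, and 3 control arrays. UBE2S, which extends ubiquitin chains for the anaphase-promoting complex, was at 0.19 and the subunit ANAPC15 at -0.28. The centromere protein CENPI was at 0.35 and the checkpoint protein KNTC1 at -0.15. Of condensin and cohesin genes the cohesin regulator PDS5A was at 0.25 and NCAPD3 at -0.16. WEE1, the kinase that restrains CDK1, was at 0.20 and the repressor E2F4 at -0.19. Of other kinesins, the transport motors KIF5B and KIF1A were at 0.17 and -0.21. TACC2 was at 0.30 and gamma-tubulin TUBG1 at -0.17, and KIF20B was at 0.16 and SEPTIN9 at -0.16. Among tubulins TUBB2A was at 0.42 (SE 0.08, adjusted p = 0.198 by limma) and TUBA1C at -0.13. TUBB2A was also at 0.31 with cisplatin and 0.23 with nimesulide.

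The 44 measured genes of G1/S and DNA replication, which act earlier in the cycle, had medians below control. Their median difference was -0.11 with the combination (35 of 44 lower), -0.09 with cisplatin (31 lower) and -0.09 with nimesulide (39 lower). Of all genes, 57.8%, 57.4% and 51.2% had a lower mean in these comparisons. limma called 0 of the 44. In all, 16 were lower with the combination at an unadjusted p under 0.05, 7 with cisplatin and 11 with nimesulide, and 0 were higher in any of these. Of all genes, 4.94%, 2.51% and 3.15% were lower at this level. MCM5, a subunit of the replicative helicase, was at -0.33 with the combination, and the origin protein ORC2 at 0.17. With cisplatin the list mean, less the control mean, was 0.02, -0.13 and -0.09 on arrays A, B and C. Of 13 measured p53 targets the median was 0.02 with cisplatin and -0.03 with the combination. CCNG1 was at 0.19 and MDM2 at -0.12 with the combination. CDKN1A, the p53-induced inhibitor of cyclin-dependent kinases, was at 0.09 with cisplatin (SE 0.07). The p53 targets ran from TNFRSF10B at 0.17 to BAX at -0.13 with cisplatin, with 7 higher and 6 lower. At an unadjusted p under 0.05, 1 of them was higher and 0 lower with cisplatin, against 1.54% and 2.51% of all genes.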

How the data were processed

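Total RNA of 11 samples was measured on 1 array each. Each probe set has a log2 intensity that the authors normalised with RMA, per the labels' design text; the log2 scale was judged from their range (2.53 to 13.37), and the RMA version was not given in the sources used here. RMA gives every array the same distribution of probe values, which removes any change common to all transcripts. Of 16383 probe sets, 14045 had 1 symbol, 792 several and 1546 none.

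limma 3.58.1 in R 4.3.3 (lmFit, eBayes without trend) fitted a mean per treatment to all arrays, with 7 residual degrees of freedom, after a test on simulated data. The number of arrays limits the precision (median standard error 0.08 for 3 against 3). Named members were, by rule, the 4 highest and 4 lowest differences in each of the first 4 comparisons and 2 and 2 in the others, and those with an unadjusted p under 0.01. Other members named with a difference, such as CENPE for the combination against control and the rest of each role for cisplatin, fall outside that rule and were named after their values were seen. The members, lists and rules were chosen with earlier results of these data known. Scores over members were given no test.

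The authors' deposited protocol lists RNA preparations under letters A, B and C; a combination C array was not analysed here. After removal of treatment means, same-letter arrays correlated at 0.135 to 0.355 between control and a single agent. They correlated at 0.0831 to 0.232 between the single agents and at 0.0883 to 0.210 with the combination. Different letters gave -0.251 to 0.0342 outside the combination and -0.210 to 0.144 with it. Removing the means makes deviations within a treatment cancel out, so the different-letter values are not an independent reference. The combination's pairing is not clear from these values. A fit with the replicate block (5 residual degrees of freedom) was an alternative, as were quantile normalization, dropping dim probe sets, the median over all probe sets of a gene, a trended robust fit, and leaving out arrays or letters.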

Additional observations from a re-analysis of the deposited data

Results flagged for a closer look

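Members were looked at again where every letter moved one way under an agent alone and the opposite way under the same agent on top of the other; the difference between these effects was not called by limma for any member. For nimesulide this held in 2 of 35 members, BUB3 and HMMR, against 5.66% of all genes. BUB3 differed by -0.04, -0.08 and -0.03 in letters A, B and C when nimesulide was given alone, and by 0.35 and 0.08 in letters A and B when it was added to cisplatin (mean 0.21). HMMR differed by 0.32, 0.01 and 0.29 when nimesulide was given alone, and by -0.01 and -0.04 when it was added to cisplatin (mean -0.029). By another HMMR probe set, combination A and B (7.55 and 7.76) lay above cisplatin A and B (7.35 and 7.68). By that probe set, nimesulide alone was higher in letters A and B and lower in letter C. For cisplatin, opposite directions held in BUB3 and TPX2, against 6.22% of all genes. BUB3 differed by -0.20, -0.01 and -0.08 with cisplatin alone, and by 0.20 and 0.16 when cisplatin was added to nimesulide (mean 0.18). By its other probe sets, BUB3 had a higher mean with nimesulide alone (0.17, 0.19 and 0.10). The same probe sets were also higher with cisplatin alone (0.03, 0.10 and 0.14). The opposite directions of BUB3 thus rest on its brightest probe set. TPX2 differed by 0.01, 0.12 and 0.16 with cisplatin alone, and by -0.02 and -0.10 on top of nimesulide (mean -0.057). These shares are near those of all genes, and both effects of 1 gene share arrays.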

How the results depend on the processing

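No member was called in any of the 6 comparisons under any alternative run. The mean difference over the members with cisplatin lay between 0.09 and 0.14 under every alternative for which it was computed. It was not computed for the fit without dim probe sets or for the trended robust fit. Leaving out arrays or letters moved the combination values across 0: -0.014 to 0.252 against control, -0.133 to 0.128 against cisplatin, -0.027 to 0.234 against nimesulide and -0.145 to 0.116 for the interaction; with 1 combination array left, that array is assumed to vary like the other groups. With the replicate block the calls over all probe sets were 37 for nimesulide against control, 33 for the combination against control and 37 for the combination against cisplatin; a trended robust fit gave 2, 5 and 3, and quantile normalization gave 2 for the combination against cisplatin. When arrays or letters were left out, these counts ran from 0 to 4, 0 to 1 and 0 to 4. The block changed no call of a member. With the median over all probe sets of a gene, directions turned for BUB3 with cisplatin (0.10) and in the interaction (-0.095), CCNA2 in the combination against control (0.094) and MKI67 in the combination against cisplatin (-0.017). Leaving out arrays or letters turned, against control, CENPA with cisplatin (-0.12 to 0.067), KIF11 with nimesulide (-0.17 to 0.021) and, with the combination, CCNA2 (-0.23 to 0.18), ZWINT (-0.14 to 0.00051), KIF11 (-0.29 to 0.22) and ESPL1 (-0.20 to 0.010). Against nimesulide it turned CCNA2 (-0.35 to 0.068) and ESPL1 (-0.16 to 0.010), against cisplatin KIF14 (-0.068 to 0.32) and MKI67 (-0.031 to 0.22), and in the interaction CCNA2 (-0.37 to 0.024) and CENPE (-0.055 to 0.35). The causes were not tested.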
